A study of Mus musculus with 6 samples.

Results

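The immediate-early genes *Egr1*, *Egr2*, *Egr3*, *Nr4a1*, *Nr4a2*, *Nr4a3*, *Ier2*, *Ier3* and *Ier5* were examined in osteoblasts exposed to the glucocorticoid corticosterone. The 9 genes were chosen by name as the listed members of 3 families, and each was found by its Ensembl identifier among the 24016 genes of the expression table. All 9 passed the filter on low values, a mean normalized count of at least 0.1, which removed no gene from the table.

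MC3T3-E1 is a mouse preosteoblast cell line. Wild-type cells of its subclone 4, which is 1 clone, were differentiated for 6 days with β-glycerophosphate (10 mM) and ascorbic acid (50 µg/ml). RNA-seq was performed on 3 libraries labelled vehicle and 3 labelled corticosterone, described as biological replicates, the latter after 100 nM corticosterone for 24 h. The labels give calcitriol at 10 nM, the active form of vitamin D, in the same words for all 6 libraries, so the vehicle cells are taken to have received it too. The question was which genes respond to the hormone.

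Immediate-early genes are transcribed within minutes of a growth factor, mechanical or hormonal signal, by factors already present in the cell, and their short-lived transcripts decay soon after. The EGR proteins are zinc-finger transcription factors, the NR4A proteins are orphan nuclear receptors that act without a known physiological ligand, and the IER genes are a group named for their fast induction that encode unrelated or distantly related proteins. In osteoblasts, *Egr* and *Nr4a* genes are known as targets of parathyroid hormone and mechanical loading. The libraries here were taken at a single late time, so their values are levels at 24 h and not an induction.

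Promoter sequence is shown for *Egr2*, a member with one of the larger falls, and for the 3 *Nr4a* genes, to show how the sites of the known inducers of these families are arranged. Each window of 300 bases ends 50 bases after an annotated start site, in RefSeq annotation on GRCm38.p6, and is written in the direction of the gene. The windows are *Egr2* at chr10:67537619-67537918 on the plus strand, *Nr4a1* at chr15:101266596-101266895 on the plus strand, *Nr4a2* at chr2:57123954-57124253 on the minus strand and *Nr4a3* at chr4:48045055-48045354 on the plus strand. Capitals mark the CArG box, bound by serum response factor, and TGACG or its reverse complement CGTCA, which is part of the site bound by CREB.
Egr2: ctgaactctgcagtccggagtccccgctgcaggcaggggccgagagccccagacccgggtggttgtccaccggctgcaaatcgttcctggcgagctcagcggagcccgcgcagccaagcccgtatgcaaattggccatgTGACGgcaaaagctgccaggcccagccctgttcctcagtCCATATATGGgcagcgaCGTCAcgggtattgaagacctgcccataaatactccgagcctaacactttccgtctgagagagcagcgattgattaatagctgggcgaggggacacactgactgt
Nr4a1: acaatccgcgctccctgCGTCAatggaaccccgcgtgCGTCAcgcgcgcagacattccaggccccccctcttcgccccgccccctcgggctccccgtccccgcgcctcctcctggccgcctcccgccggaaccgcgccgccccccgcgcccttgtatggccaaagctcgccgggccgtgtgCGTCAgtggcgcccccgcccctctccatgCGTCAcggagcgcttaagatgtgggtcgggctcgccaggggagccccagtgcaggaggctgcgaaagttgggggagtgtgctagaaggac
Nr4a2: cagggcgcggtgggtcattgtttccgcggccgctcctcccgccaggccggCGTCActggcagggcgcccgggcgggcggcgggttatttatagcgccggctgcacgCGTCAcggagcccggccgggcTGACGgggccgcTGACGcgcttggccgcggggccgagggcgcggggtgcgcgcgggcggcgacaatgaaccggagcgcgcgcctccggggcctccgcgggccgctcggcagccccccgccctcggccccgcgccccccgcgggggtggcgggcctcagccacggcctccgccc
Nr4a3: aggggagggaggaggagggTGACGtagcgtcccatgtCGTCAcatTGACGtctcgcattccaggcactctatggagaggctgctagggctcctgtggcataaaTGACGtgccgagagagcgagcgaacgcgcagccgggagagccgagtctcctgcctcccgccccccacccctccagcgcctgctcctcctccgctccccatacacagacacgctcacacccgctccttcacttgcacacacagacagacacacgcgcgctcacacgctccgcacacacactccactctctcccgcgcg

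The *Egr2* window shown, chosen from 5 because it holds both motifs, had 1 CArG box starting 72 bases before the start site, between TGACG at 111 bases and CGTCA at 55 bases before it. The *Nr4a1*, *Nr4a2* and *Nr4a3* windows each held 4 copies of TGACG, read on both strands. Of the 32544 RefSeq windows of this length searched, 1.64% held a CArG box, 20.9% held TGACG, 5.04% held at least 2 copies and 0.234% at least 4. Windows on chromosome 18, where *Egr1* lies, were left out of the search and of these shares, so *Egr1* could have none. RefSeq windows were matched for 6 of the 9 genes, 10 windows in all, of which 5 were for alternative starts of *Egr2*. The *Egr2* window at chr10:67535249-67535548, which spans the start of the annotated gene, held neither motif, and the one at chr10:67537316-67537615 held a CArG box but no TGACG. The other *Egr2* windows overlap the one shown and hold the same sites. The *Ier3* and *Ier5* windows held neither motif. The complete CREB site TGACGTCA (1.80% of all windows), the NR4A site AAAGGTCA (1.52%), the glucocorticoid receptor core ACANNNTGT (6.83%) and the single receptor arm AGAACA (18.9%) were searched on both strands and matched none of the 10 windows. The EGR site GCGGGGGCG (2.93%) matched once, in the *Nr4a1* window, and its form GCGTGGGCG (0.618%) not at all. TGACG also lies inside TGACGTCA. These matches describe letters in the windows and are not measured binding.

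The libraries held 16020401 to 25638645 reads on genes, 19076586 to 25638645 in vehicle and 16020401 to 18992332 in corticosterone libraries. Values are normalized counts, the reads of a gene divided by a size factor of its library, and 3 reads were worth 2.32 to 3.84 normalized counts. The osteoblast markers *Runx2*, *Sp7*, *Alpl*, *Col1a1*, *Ibsp* and *Bglap* were detected in every library, and their summed level was 700059 to 734104 in vehicle and 626765 to 666935 in corticosterone libraries. All 6 were lower with corticosterone at an adjusted p under 0.05 (limma), 4 of them by more than 1 on the log2 scale. Of the markers of other cells, 3 of 5 for macrophages (sum 262 to 300 against 214 to 239), 2 of 4 for cartilage (1145 to 1455 against 701 to 851), 2 of 4 for fat (7.72 to 21.1 against 108 to 133) and 2 of 4 for muscle (8.49 to 17.0 against 18.8 to 23.0) could be measured. The defining genes *Ptprc*, *Adgre1*, *Acan*, *Adipoq*, *Myod1* and *Myog* were looked for but were not among the 24016 genes, so their levels are not known. *Plin1* was at 0 in all vehicle libraries. Each sum was mostly 1 gene. The osteoblast sum was mostly *Col1a1*, with means of 709237 in vehicle and 638757 in corticosterone libraries. *Col2a1* (1297 and 744) made up most of the cartilage sum and *Lyz2* (229 and 178) most of the macrophage sum. The fat sum came from *Fabp4* (log2 fold change 3.14, adjusted p = 1.3e-06), and the muscle sum mostly from *Acta1*. The part of these markers, and of the depth that differed between groups, in the results was not tested. In whole cultures, fewer cells expressing a gene and less of its RNA per cell cannot be told apart.

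Corticosterone lowered most of the 9 genes, and the *Egr* family most. *Egr2* and *Egr3* were 4.21-fold lower, *Egr1* was 1.87-fold lower, and *Ier3*, *Nr4a1* and *Nr4a2* were 1.34- to 1.48-fold lower, while *Ier5* did not follow. A gene is said here to have fallen or risen where the adjusted p of the limma test was under 0.05, and to be called where its log2 fold change was also beyond 1 in size. Of the 9, 6 fell and none rose. The called genes were 2, *Egr2* and *Egr3*, both lower. Over all 24016 genes, 8.20% fell and 8.49% rose, and 1.40% were called lower and 1.38% higher. Among the 13880 genes with a mean of at least 10 normalized counts, as all 9 had, 13.5% fell. The median log2 fold change was -0.54 over the 9 genes, with a range from -2.08 to 0.10, and -0.01 over all genes. All corticosterone libraries lay below all vehicle libraries for 8 of the 9 genes, a separation seen in 14.9% of all genes. The opposite separation, seen in 14.7%, was found for none. The 9 genes together summed to 6366 to 7751 normalized counts in vehicle and 4218 to 4789 in corticosterone libraries.

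**Figure D1:**
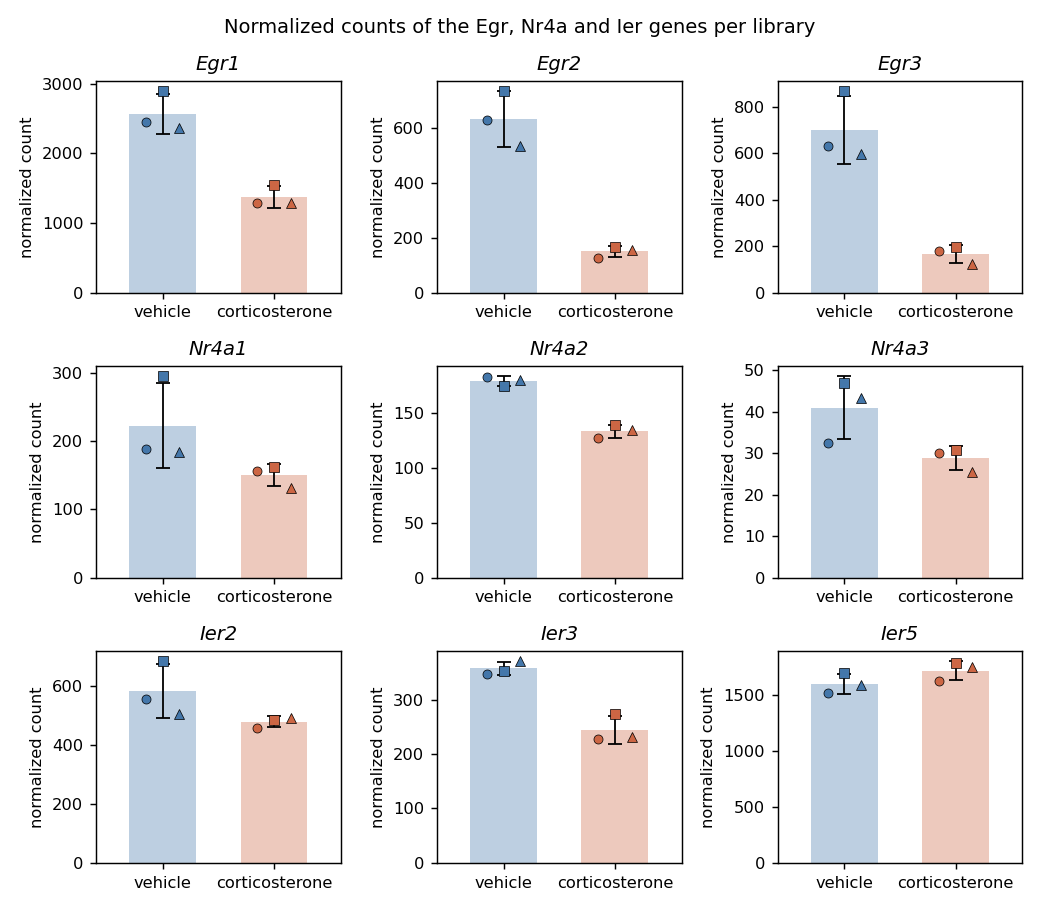
Normalized counts of the 9 genes in each library, 1 panel per gene with its own axis from 0, with bars at the mean of 3 libraries, error bars of 1 SD and circles, squares and triangles for replicates 1, 2 and 3. The treated libraries lie below the vehicle libraries in all panels but that of *Ier5*, where the groups overlap.

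The EGR transcription factors bind the same GC-rich element and activate or repress growth and matrix genes. *Egr1*, the founding member, lies at 18:34859823-34864984 (GRCm38, plus strand). It was read at 2457, 2895 and 2359 normalized counts in vehicle and 1288, 1552 and 1284 in corticosterone libraries. The lowest vehicle library stood well above the highest treated one. *Egr1* fell with a log2 fold change of -0.90 (SE 0.08, 95% interval -1.07 to -0.74, adjusted p = 3e-07), to 53.5% of its vehicle mean, from 2570.5 ± 285 to 1375 ± 153 (SD, n = 3 each). Its interval reached past -1, but its estimate did not, so it was not called.

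*Egr2*, also known as Krox20 and needed for myelination and endochondral bone formation, lies on chromosome 10 at 67535475-67542188 (plus strand). Its normalized counts were 632, 736 and 535 in vehicle and 126, 168 and 157 in corticosterone libraries. Every treated library was far below every vehicle library, with a wide gap between the groups. The mean of *Egr2* fell from 634 ± 101 to 151 ± 21.6 (SD over 3 libraries in each group). Its log2 fold change was -2.07 (SE 0.12, 95% interval -2.33 to -1.82, adjusted p = 2.6e-09).

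*Egr3*, best known from lymphocytes and muscle spindles, lies on chromosome 14 at 70077203-70082614 (plus strand). Its normalized counts were 632, 867 and 597 in vehicle and 179, 195 and 123 in corticosterone libraries. The groups were again far apart, and the spread within each was wider than for *Egr2*. *Egr3* thereby fell by 2.08 on the log2 scale, its means being 698 ± 147 and 166 ± 38.1 (SD over 3 libraries; SE 0.15, 95% interval -2.41 to -1.76, adjusted p = 4.3e-08). Both genes were left at 23.7% of their vehicle means.

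The 95% interval of the change of *Egr1* did not overlap those of *Egr2* and *Egr3*, which lay lower. The log2 ratio of *Egr2* to *Egr1* was lower by 1.17 in corticosterone than in vehicle libraries, and that of *Egr3* to *Egr1* was lower by 1.18, in both cases with no overlap between groups. With 3 libraries against 3, the exact permutation test (two-sided) cannot go below p = 0.1, which both ratios had (adjusted p = 0.225 over the 9 within-family pairs). The ratio of *Egr3* to *Egr2* differed by -0.01 (exact permutation p = 0.9), with overlapping groups. Per kilobase of annotated exon, *Egr1* made up 62.6 ± 1.64% of the *Egr1* to *Egr3* level in vehicle and 78.9 ± 0.428% in corticosterone libraries (SD, n = 3 each). The share of *Egr2* went from 20.3 ± 0.999% to 11.4 ± 1.34%, and that of *Egr3* from 17.2 ± 1.24% to 9.64 ± 1.74%.

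**Figure D2:**
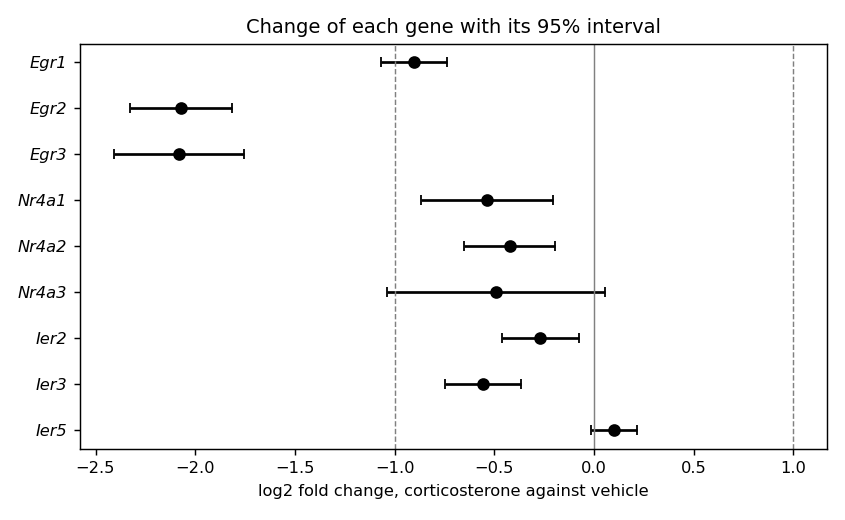
Log2 fold change of each of the 9 genes, corticosterone against vehicle, from limma over 3 libraries a group, with points for the estimate and lines for the 95% interval. *Egr2* and *Egr3* lie near -2, *Egr1* at -0.90, and the interval of *Ier5* crosses 0.

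The NR4A receptors bind DNA as monomers or dimers, also with retinoid X receptors, and are controlled mainly by how much of them is made. *Nr4a1* (Nur77), on chromosome 15 at 101254269-101274795 (plus strand), was at 189, 295 and 184 normalized counts in vehicle and 156, 162 and 132 in corticosterone libraries. The second vehicle library was high, and the other vehicle libraries stood only slightly above the treated ones. *Nr4a1* fell from 223 ± 62.6 to 150.1 ± 16.2 (SD, n = 3 each), with a log2 fold change of -0.54 (SE 0.16, 95% interval -0.87 to -0.21, adjusted p = 0.024). Without vehicle replicate 2 the value was -0.32 (adjusted p = 0.13), and its adjusted p was above 0.05 on leaving out any of 5 of the 6 libraries.

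*Nr4a2* (Nurr1), studied most in dopamine neurons, lies on chromosome 2 at 57106830-57124003 (minus strand). Its normalized counts were 183, 174 and 180.0 in vehicle and 127, 139 and 134 in corticosterone libraries. Both groups were tight and did not overlap. *Nr4a2* fell to 74.6% of vehicle, 134 ± 5.91 against 179 ± 4.46 (SD over 3 libraries), or -0.42 on the log2 scale (SE 0.11, 95% interval -0.65 to -0.19, adjusted p = 0.011).

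*Nr4a3* (Nor1), on chromosome 4 at 48045153-48086447 (plus strand), was the least abundant of the 9 genes, with 20 to 61 reads a library. Its normalized counts were 32.4, 47.1 and 43.4 in vehicle and 30.0, 30.9 and 25.6 in corticosterone libraries. The treated libraries were below the vehicle ones by a narrow margin. The log2 fold change of -0.49 (SE 0.26, 95% interval -1.04 to 0.05) was close to that of the other *Nr4a* genes but did not pass the test (adjusted p = 0.25). A change of this size was not resolved here, and the part of read depth in that was not tested.

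Among the *Nr4a* genes, differences in the size of the change were small, and the ratios of the groups overlapped. The differences in log2 ratio between groups were 0.11 for *Nr4a2* to *Nr4a1* (exact permutation p = 0.8), 0.04 for *Nr4a3* to *Nr4a1* (p = 1.0) and -0.07 for *Nr4a3* to *Nr4a2* (p = 0.7). Per kilobase, *Nr4a1* held 54.8 ± 6.55% of the family level in vehicle and 53.0 ± 2.59% in corticosterone libraries. *Nr4a2* held 39.2 ± 6.39% and 41.0 ± 2.83% (SD, n = 3 each).

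*Ier2* and *Ier5* encode related nuclear proteins, IER5 being a partner of the heat shock factor HSF1, and *Ier3* (IEX-1) encodes an unrelated regulator of cell survival. *Ier3*, on chromosome 17 at 35821684-35822923 (plus strand), was at 348, 353 and 370.3 normalized counts in vehicle and 227, 273 and 232 in corticosterone libraries. The groups were well apart. *Ier3* fell to 68.2% of vehicle, 244 ± 25.2 against 357 ± 11.7 (SD over 3 libraries), or -0.56 on the log2 scale (SE 0.09, 95% interval -0.75 to -0.36, adjusted p = 0.00027).

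*Ier2*, on chromosome 8 at 84661331-84662852 (minus strand), was at 556, 685 and 508 normalized counts in vehicle and 459, 487 and 494 in corticosterone libraries. The treated libraries lay below the vehicle ones, the nearest pair being close. The log2 fold change was -0.27 (SE 0.09, 95% interval -0.46 to -0.08) with an adjusted p of 0.056, just above the threshold, and it passed in 6 of 16 other settings, edgeR and DESeq2 on the reads among them. Without vehicle replicate 2 it was -0.15 (adjusted p = 0.24).

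*Ier5*, on chromosome 1 at 155096361-155099636 (minus strand), was at 1519, 1697 and 1589.8 normalized counts in vehicle and 1625, 1782 and 1748 in corticosterone libraries. This was the single member whose groups overlapped. Its mean was 1602 ± 89.8 in vehicle and 1718 ± 82.2 in corticosterone libraries (SD, n = 3 each). The log2 fold change was 0.10 (SE 0.05, 95% interval -0.01 to 0.22, adjusted p = 0.27), an interval that holds no fall of the size seen for *Ier3*. The log2 ratio of *Ier5* to *Ier3* was higher by 0.66 in corticosterone libraries and that of *Ier5* to *Ier2* by 0.37, each without overlap (exact permutation p = 0.1, the smallest possible; adjusted p = 0.225). The ratio of *Ier3* to *Ier2* differed by -0.29 (exact permutation p = 0.2). As a share of the 3 *Ier* genes per kilobase, *Ier5* went from 41.2 ± 1.01% to 49.7 ± 0.494%.

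Levels were set against each other only per kilobase of annotated exon. In vehicle libraries the order was *Egr1* (mean 573, range 526 to 646), *Ier5* (489, 464 to 518), *Ier2* (383, 334 to 450.3), *Ier3* (316, 308 to 327), *Egr2* (187, 157 to 217), *Egr3* (159, 135 to 197), *Nr4a1* (63.4, 52.5 to 84.0), *Nr4a2* (44.2, 43.0 to 45.1) and *Nr4a3* (6.85, 5.42 to 7.86). Only the neighbours *Egr2* and *Egr3* overlapped. In corticosterone libraries *Ier5* came first (524, 496 to 544), and *Ier2* (315, 302 to 324) overlapped *Egr1* (307, 286 to 346), followed by *Ier3* (216, 201 to 241). *Egr2* (44.3, 37.2 to 49.4), *Nr4a1* (42.8, 37.6 to 46.3), *Egr3* (37.6, 27.9 to 44.4) and *Nr4a2* (32.9, 31.4 to 34.3) each overlapped the next, so that *Egr2* and *Egr3* had moved into the range of the *Nr4a* genes, with *Nr4a3* last (4.82, 4.27 to 5.17). The summed level of the 3 *Egr* genes was 918 ± 125 in vehicle and 388 ± 44.5 in corticosterone libraries, that of the *Nr4a* genes 114 ± 17.7 and 80.5 ± 5.41, and that of the *Ier* genes 1188 ± 80.6 and 1055 ± 53.6 (SD, n = 3 each).

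**Figure D3:**
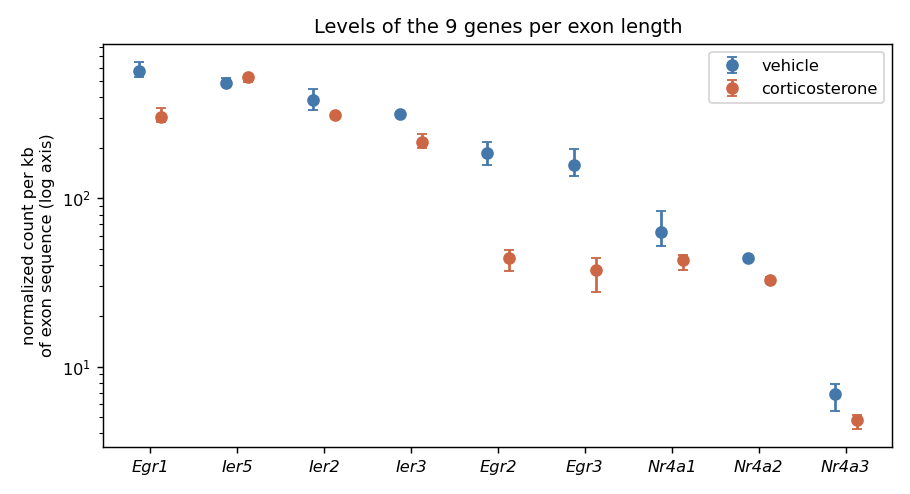
Normalized counts per kilobase of annotated exon for the 9 genes on a log axis, with points at the mean of 3 vehicle or 3 corticosterone libraries and error bars from the lowest to the highest library. *Egr1* leads in vehicle at 573 and *Ier5* in corticosterone at 524, and *Egr2* and *Egr3* lie among the *Nr4a* genes after treatment.

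The libraries of 1 group were not alike for these genes. Vehicle replicate 2, the deepest library, was the highest vehicle library for 7 of the 9 genes, *Nr4a2* and *Ier3* being the exceptions. It was also the highest for 29 of 41 other immediate-early genes, but for 36.2% of the 13880 genes with a mean of at least 10 and for 1 of 12 heat shock genes. Corticosterone replicate 2 was the highest treated library for 8 of the 9 genes, for 15 of the 41 others and for 32.6% of the 13880. Without vehicle replicate 2, *Egr1* (log2 fold change -0.81), *Egr2* (-1.96), *Egr3* (-1.92), *Nr4a2* (-0.44) and *Ier3* (-0.56) still fell. The part of depth in this order of libraries was not tested.

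**Figure D4:**
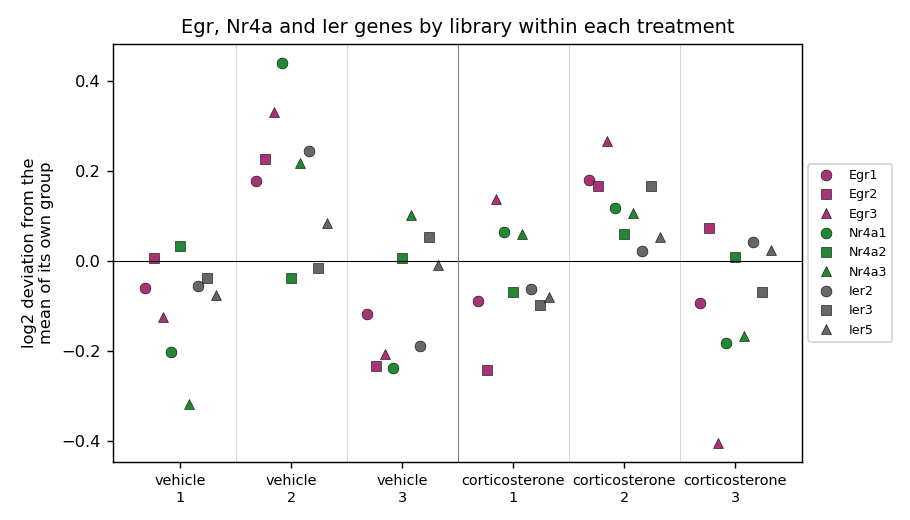
Log2 deviation of each of the 9 genes from the mean of its own group, by library, with colours for the families and circles, squares and triangles for members within a family. Most genes lie above 0 in vehicle replicate 2 and in corticosterone replicate 2.

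Among 41 other immediate-early genes, changes went both ways. Corticosterone raised 15, lowered 9, and left 17 that did not pass the test, where 8.49% of all genes rose and 8.20% fell. Among the 13880 genes with a mean of at least 10 normalized counts, as all 41 had, 13.5% fell. The share that rose among those was not counted. The median log2 fold change of the 41 was -0.03, against -0.54 for the 9 genes. A fall was not particular to the 9 genes. *Plk2* fell further (-0.82, adjusted p = 7.6e-09) than any *Nr4a* or *Ier* gene. *Arc* had a log2 fold change like that of *Ier3* (-0.56, adjusted p = 0.027), but vehicle replicate 2 was far above its other libraries. Its normalized counts were 168, 273 and 159 in vehicle and 140, 127 and 128 in corticosterone libraries. *Ctgf*, a secreted matrix protein, was called higher (996 ± 53.2 to 2904 ± 85.1, SD, n = 3 each, log2 fold change 1.54, adjusted p = 3.8e-12). *Dusp1*, a phosphatase that switches off MAP kinases and is a known glucocorticoid target, was also called higher (1.36, adjusted p = 6.2e-10). *Dusp4*, another phosphatase of that kind, was the only one called lower (86.0 ± 13.9 to 42.5 ± 2.09, adjusted p = 0.001), at the edge of the threshold. That call was lost in 5 of 16 alternatives, namely without corticosterone replicate 1 (log2 fold change -0.97), corticosterone replicate 2 or vehicle replicate 2 (-0.88), with a pseudocount of 1 (-0.99) and with quantile normalization (-0.96). Of the 5 most abundant, *Zfp36l2*, which promotes mRNA decay, rose (0.47) and so did *Jun* (0.24). *Fosl2*, a partner of *Jun* in AP-1, fell (-0.29), while *Cyr61* at 0.14 (adjusted p = 0.1) and *Btg1* at -0.03 (adjusted p = 0.75) did not pass. *Fos*, the textbook immediate-early gene, was named after its values were seen. It was at 168, 237 and 187 normalized counts in vehicle and 121, 147 and 182 in corticosterone libraries, which overlapped (-0.40, adjusted p = 0.09).

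**Figure D5:**
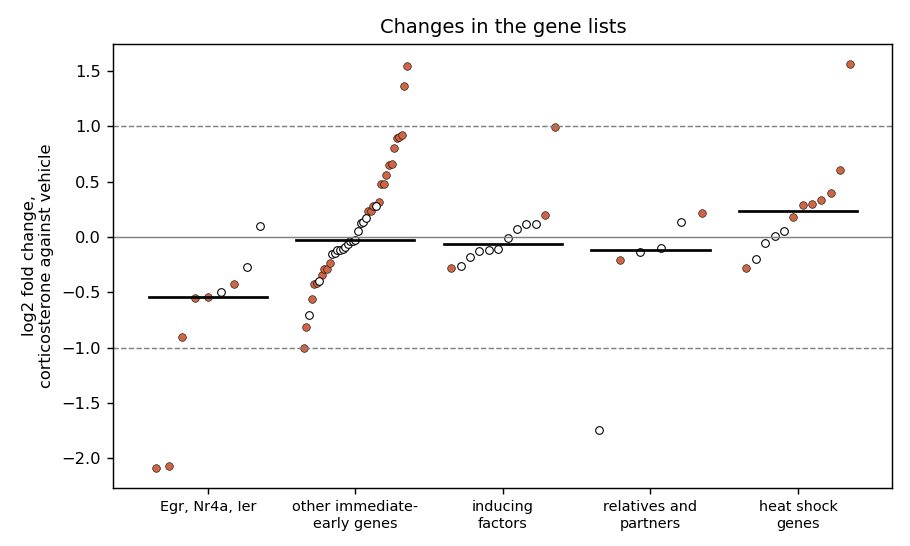
Log2 fold change of each gene, corticosterone against vehicle, for the 9 genes, their relatives, the inducing factors, 41 other immediate-early genes and heat shock genes, with filled points for an adjusted p under 0.05, a line at each list's median and dashed lines at 1 and -1. The 9 genes have a median of -0.54, and the other immediate-early genes scatter on both sides of 0 around -0.03.

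Relatives and partners of the 9 genes changed little. Of 6 measured, 1 rose, 1 fell and none was called, with a median log2 fold change of -0.12. Over all genes, 8.49% rose and 8.20% fell. *Nab2*, a corepressor that binds EGR proteins, fell from 3616 ± 238 to 3121 ± 93.5 (SD, n = 3 each, log2 fold change -0.21, adjusted p = 0.0065). *Rxra*, a retinoid X receptor, rose (0.22, adjusted p = 0.0029). *Egr4* had only 1 to 9 reads a library, and its value of -1.74 was not resolved (95% interval -3.50 to 0.01, adjusted p = 0.19). *Rxrg* was not among the 24016 genes.

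Among 12 transcription factors known to induce immediate-early genes, 2 rose, 1 fell and none was called, with a median log2 fold change of -0.06. Over all genes, 8.49% rose and 8.20% fell. Among genes with a mean of at least 10 normalized counts, as all 12 had, 13.5% fell, and the share that rose was not counted. *Mkl1*, a coactivator of serum response factor, rose from 4145 ± 195 to 8247 ± 251 (SD, n = 3 each, log2 fold change 0.99, adjusted p = 1e-10), just under the size needed to be called. *Atf1*, a relative of CREB, rose by 0.19 on the log2 scale (adjusted p = 0.025). *Elk4*, a partner of serum response factor, fell (-0.28, adjusted p = 0.01). *Srf* itself, at 0.12 (adjusted p = 0.16), and *Creb1*, at -0.12 (adjusted p = 0.22), did not pass the test.

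The heat shock genes, listed because of the tie between IER5 and HSF1, went mostly up. Of 12, 7 rose, 1 fell and 4 did not pass, with a median log2 fold change of 0.23. Over all genes, 8.49% rose and 8.20% fell. Among genes with a mean of at least 10 normalized counts, as all 12 had, 13.5% fell, and the share that rose was not counted. Among those that did not pass were *Hsp90ab1* (-0.06, adjusted p = 0.36), *Hspa5* (0.06, adjusted p = 0.46) and *Dnajb1* (-0.19, adjusted p = 0.059). *Hsph1*, a co-chaperone of HSP70, was called higher (2295 ± 38.1 to 6770.3 ± 181, SD, n = 3 each, log2 fold change 1.56, adjusted p = 1.6e-13). *Hspa8*, the constitutive HSP70, rose (0.30, adjusted p = 2.8e-05), and *Dnaja1*, its co-chaperone, fell (-0.28, adjusted p = 7.8e-05). *Hsf1* transcript was at 0.00 (adjusted p = 0.98).

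The genes nearest in pattern to the most abundant member of each family were found among 10550 candidates by the root-mean-square difference of centred log2 values over the 6 libraries. For *Egr1* they were *Sgms2* (0.0692), *Adamts6* (0.0702) and *Tspan5* (0.0776), with log2 fold changes of -0.96, -0.87 and -0.86. For *Nr4a1* they were *Arc*, *Eda2r* and *Cp*, at 0.0960 to 0.114. For *Ier5* they were *Def8* (0.0159), *Inpp5e* (0.0193) and *Lpin1* (0.0207). These distances describe the 6 libraries and carry no test.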

How the data were processed

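RNA-seq libraries were made from total RNA with the NEBNext Ultra RNA kit, and the submitters' processing notes name the mouse build mm10. The aligner, the annotation and the use of strand in counting are not given in the sources used here. No annotated exon of another gene overlapped exons of the 9 genes, on either strand, and 0 to 0.523% of their 31-base words occurred in other genes. The authors deposited 1 table whose name gives FPKM but whose values are a signal in size-factor-normalized counts: 100% of values came out as whole reads within 0.01 after division by the value of 1 read. Of 24016 identifiers, 23983 were paired with a symbol and 33 were not. Values were tested as log2(value + 0.1) with limma 3.58.1 (variance trend, R 4.3.3) over every gene whose mean reached 0.1. P-values were adjusted over all of these by Benjamini-Hochberg. The added 0.1 weighs most in low genes. Their log2 fold changes, which are differences of mean log2 values, can be larger or smaller than the change in group means. Calls required an adjusted p under 0.05 and a log2 fold change beyond 1. edgeR 4.0.16 (quasi-likelihood) and DESeq2 1.42.0 on recovered reads, other scalings, pseudocounts and filters, a replicate block and leaving out each library were alternatives. Exact permutation tests used scipy 1.17.1. The tests were tried on simulated counts. Reads are counted without molecular identifiers, so that read numbers cover counting error only. The libraries of different treatment differed more than replicates, and no 2 libraries agreed within sampling noise.

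Named genes were all 9 members, the called genes and up to 5 of the most abundant of each list, and the 3 genes nearest in pattern to the most abundant member of each family with a mean of at least 100. Some further listed genes were named after their values were seen. The members and lists were chosen with earlier results of these data known. Exon lengths were the union of exons annotated by GENCODE on GRCm38, and promoters came from RefSeq on GRCm38.p6.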

Additional observations from a re-analysis of the deposited data

How the results depend on the processing

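Over 16 alternatives, 131 of 144 values for the 9 genes kept their direction and side of the threshold. Of the others, 7 no longer passed the test, 6 newly passed it and 0 reversed. *Egr2* and *Egr3* were called in all 16. The size of the adjusted p depended on the variance trend. Without it the adjusted p was 0.025 for *Egr1*, 0.0073 for *Egr2*, 0.016 for *Egr3*, 0.029 for *Nr4a2* and 0.041 for *Ier3*. These were larger than in the main test but still under 0.05. *Nr4a1*, which was not called, had an adjusted p above 0.05 with no variance trend (-0.54, adjusted p = 0.29), with a pseudocount of 0.01 (-0.54, adjusted p = 0.053) and on leaving out any library but vehicle replicate 1 (range -0.66 to -0.32, adjusted p up to 0.22). *Ier2* passed with DESeq2 (-0.28, adjusted p = 0.047), edgeR (-0.29, 0.033), a mean of at least 10 (-0.27, 0.038), a pseudocount of 1 (-0.27, 0.028) and the same total per library (-0.31, 0.025). Its leave-one-out values ran from -0.36 to -0.15. The count of genes called lower was 337, 204 to 321 with a library left out (220 without vehicle replicate 2, 204 without vehicle replicate 3) and 245 to 368 otherwise. The count called higher was 331, 253 to 331 and 269 to 354. Of the other immediate-early genes, *Dusp4* was not called with a pseudocount of 1 or quantile normalization (0 called) and leaving out libraries gave 0 to 1. *Mkl1* was called without corticosterone replicate 2 or vehicle replicate 1 (0 to 1 inducing factors). The cause of these shifts was not tested. The median of all genes moved at most to -0.05. No filter on low values gave the main values, since the smallest mean was 0.257.

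The replicate block brought *Ier2* past the threshold (-0.27, adjusted p = 0.048), moved none of the other 8 genes across it and gave 297 genes called higher and 294 lower. Same-numbered libraries were not shown to be paired: their deviations correlated at 0.067, 0.088 and 0.016 over 10558 genes, and replicate 3 did not correlate best with its own number. *Nr4a3* (20 to 61 reads) and *Egr4* (1 to 9 reads) had few reads, and the part of depth in their unresolved changes was not tested. With 3 libraries a group, every exact test is limited to p = 0.1 or more.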
